A study of Mus musculus musculus x M. m. domesticus and Mus musculus domesticus and Mus musculus with 12 samples.

Results

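Cyclin A1, the B cyclins, CDK1 and HSPA2 drive entry of male germ cells into the meiotic divisions. Cyclin A2 acts in the mitotic cycle. The 6 genes (*Ccna1*, *Ccna2*, *Ccnb1*, *Ccnb2*, *Cdk1* and *Hspa2*) were chosen by Ensembl identifier as a readout of late spermatocytes and of the first meiotic division. Of these, 5 had values among the 7000 genes of the expression table, and *Ccnb1* (ENSMUSG00000041431_at) was not analysed here. The table holds genes detected in every male, and no further filter on low values was applied, so all 5 were tested. Expression was measured in whole testis of 12 F1 males aged 60 days, with 3 males and 3 arrays for each of 4 genotypes. The maternal strain is given first throughout. The crosses within subspecies were LEWES/EiJ x WSB/EiJ for *M. domesticus* (*DxD*) and PWK/PhJ x CZECHII/EiJ for *M. musculus* (*MxM*). *DxM* males (LEWES/EiJ x PWK/PhJ) were fertile hybrids, and *MxD* males (PWK/PhJ x LEWES/EiJ) were the sterile hybrids of the reciprocal cross. All 12 males were F1 offspring of wild-derived inbred strains, none was treated, and WSB/EiJ and CZECHII/EiJ contribute to the within-species crosses but not to the hybrids.

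Entry into the meiotic divisions needs CDK1, a kinase that is active only when bound to a cyclin. Cyclin A1 is restricted largely to male germ cells, accumulates in late spermatocytes and is required for the first meiotic division, whereas cyclin A2 acts in the mitotic cycle of many cells, spermatogonia included. HSPA2 is a testis-enriched HSP70 chaperone of spermatocytes that is needed for the desynapsis of homologues and for the assembly of active CDK1 with cyclin B. Transcripts of *Ccna1* and *Hspa2* were therefore taken as a readout of late spermatocytes and of germ cells about to divide. *Cdk1* was read with them, although its transcripts are not particular to spermatocytes. The comparison of sterile with fertile males asks whether that readout differs with sterility, and the reciprocal hybrids share their autosomal genotype and differ in the origin of their sex chromosomes.

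Between the reciprocal hybrids, none of the 5 genes passed the test, where 6.50% of all genes did, so that a count of 0 is near the share of the whole table. The largest difference, that of *Cdk1*, was 0.19 on the log2 scale. The differences that passed in other comparisons were all in the A-type cyclins. They came to 1 or 2 of the 5 genes in a comparison, where 12.1% to 31.9% of all genes passed. *Ccna1* was 0.41 lower in sterile *MxD* and 0.45 lower in fertile *DxM* males than in *DxD* males, a 1.33-fold and a 1.36-fold difference. Of all genes, 19.2% differed more between *MxD* and *DxD*, and 7.06% between *DxM* and *DxD*. *Ccna2* was highest in *MxM* and lowest in *DxD* males, 0.40 apart, with both hybrids between them. Between *DxD* and *MxM* 23.2% of all genes differed more. *Cdk1* and *Hspa2* had their highest means in *MxD* males but did not pass, and *Ccnb2* varied least. Set against *DxD*, *Ccna1* and *Hspa2* went opposite ways in *MxD* males, *Ccna1* being lower and *Hspa2* 0.22 higher. They therefore gave no single reading of late spermatocytes there. Values throughout are the deposited log2 expression of each gene after quantile normalization, so 1 unit is a doubling on the array scale, and levels were not compared between genes because each gene has its own probes. In whole testis, fewer cells of a type and less RNA per cell cannot be told apart.

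Differences were tested with limma, which fitted all 4 genotypes together, and p-values were adjusted by Benjamini-Hochberg over 7000 genes in each comparison. A gene is said to pass at an adjusted p under 0.05. In the comparison of *DxD* with *MxM*, 1 of 5 genes passed (*Ccna2*, lower in *DxD*), where 31.9% of all genes passed and 17.8% were lower in *DxD*. Between *MxD* and *DxM* 0 of 5 passed, against 6.50% of all genes, and at an unadjusted p under 0.05 the count was also 0, against 21.8%. Between *MxD* and *DxD* 2 of 5 passed, against 31.0% of all genes. Of these, *Ccna1* was lower in *MxD*, as were 15.1% of all genes, and *Ccna2* was higher, as were 15.9%. Between *MxD* and *MxM* 0 of 5 passed, against 30.3%, and 1 had an unadjusted p under 0.05, against 41.5%. Between *DxM* and *DxD* 1 of 5 passed, against 12.1%, which was *Ccna1*, lower in *DxM* like 6.21% of all genes. Between *DxM* and *MxM* 0 of 5 passed, against 16.9%, and 2 had an unadjusted p under 0.05, against 29.5%. With only 5 genes, a count can hardly lie far from what the share of all genes would give, so these counts say little about the 5 genes. Comparisons that share a genotype are not independent of each other.

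The 5 genes were also counted by whether all 3 males of a genotype lay on the same side of all 3 males of the other. This held for 1 of 5 genes between *DxD* and *MxM*, against 44.9% of all genes. It held for 0 of 5 between *MxD* and *DxM* (26.4%), 3 of 5 between *MxD* and *DxD* (50.5%), 0 of 5 between *MxD* and *MxM* (37.9%), 3 of 5 between *DxM* and *DxD* (37.7%) and 3 of 5 between *DxM* and *MxM* (30.3%). The sterile and the fertile hybrid males thus overlapped for every one of the 5 genes. The 5 genes spanned 0.26 (*Ccnb2*) to 0.60 (*Ccna1*) log2 units over the 12 males, where the median over all genes was 0.62.

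**Figure D1:**
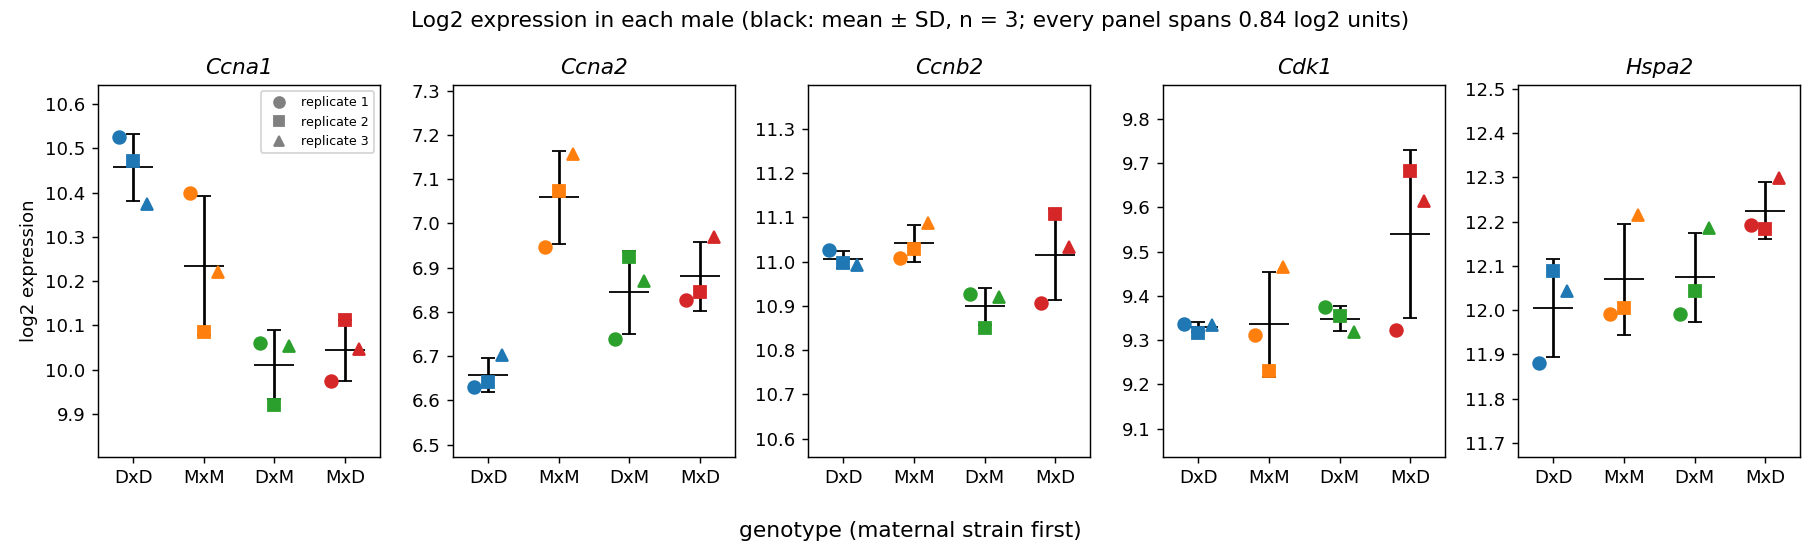
Log2 expression of the 5 measured genes in each male (vertical axis, the same span of 0.84 units in every panel), by genotype (horizontal axis). Symbols give the replicate number and black bars the mean and SD of 3 males. *Ccna1* is highest in *DxD* at 10.46 and lowest in the hybrids, *Ccna2* is lowest in *DxD* at 6.66 and highest in *MxM* at 7.06, and 1 *MxD* male lies at 9.32 for *Cdk1* while the others lie at 9.61 and 9.68.

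*Ccna1* (ENSMUSG00000027793_at, on chromosome 3), the germ-line A-type cyclin, measured 10.53, 10.47 and 10.38 in the 3 *DxD* males and 10.40, 10.08 and 10.22 in the *MxM* males. The hybrids measured 10.06, 9.92 and 10.05 in *DxM* and 9.97, 10.11 and 10.05 in *MxD*. Every hybrid male of either cross lay below every *DxD* male, and 1 *MxM* male (10.08) lay within the range of the *MxD* males. The means were 10.46 ± 0.08 (SD, n = 3) in *DxD*, 10.24 ± 0.16 in *MxM*, 10.04 ± 0.07 in *MxD* and 10.01 ± 0.08 in *DxM*, in that order.

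The difference of *MxD* from *DxD* was -0.41 (standard error 0.09, limma adjusted p = 0.0047) and that of *DxM* from *DxD* was -0.45 (standard error 0.09, limma adjusted p = 0.0068). The first passed in all 23 alternatives, and the second in 22 of 23, the exception being the unequal-variance form of the methods' t-test, with an adjusted p of 0.061. The hybrids themselves differed by only 0.03, with a 95% confidence interval of -0.16 to 0.22. *MxM* lay between *DxD* and the hybrids, and neither neighbour in that order was separated from it. The difference of *DxD* from *MxM* was 0.22 (limma adjusted p = 0.075), that of *MxD* from *MxM* was -0.19 (limma adjusted p = 0.12) and that of *DxM* from *MxM* was -0.22 (limma adjusted p = 0.11). The place of *MxM* depended on its males, which spread most. The difference of *DxD* from *MxM* was 0.30 without *MxM* replicate 1 (limma adjusted p = 0.017) and 0.15 without *MxM* replicate 2 (limma adjusted p = 0.25).

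*Ccna1* was the only one of the 5 genes to pass when both hybrids were set against both within-species crosses, a comparison added after the values had been seen. The mean of the hybrid crosses was 0.32 below that of the within-species crosses (standard error 0.06, limma adjusted p = 0.0046), and it passed in all 20 alternatives run for it. In this comparison 1 of 5 genes passed, where 21.2% of all genes passed and 11.9% were lower in the hybrids. The within-species males had a different second strain from the hybrids, so strain and hybrid state cannot be told apart here.

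Cell-type classes for part of the table place *Ccna1* among the meiotic genes, those with their strongest induction in spermatocytes. Of the 323 other meiotic genes with such a label, 44 lay lower than *Ccna1* in *MxD* against *DxD*, and 15 lay lower in *DxM* against *DxD*. The medians of the class were -0.10 and -0.05 in these comparisons. Against *MxM*, 97 of the 323 lay lower than *Ccna1* in *MxD* and 62 in *DxM*, and in *DxD* against *MxM* 242 of the 323 lay lower than *Ccna1*. *Ccna1* thus lay toward the low end of its class in the hybrids when they were set against *DxD*, and less far toward it against *MxM*. Between *MxD* and *DxM* it lay above the class median, at 0.03 against -0.05.

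*Ccna2* (ENSMUSG00000027715_at, on chromosome 3), the A-type cyclin of the mitotic cycle, is placed among the mitotic genes, those with their strongest induction in spermatogonia. It measured 6.63, 6.64 and 6.70 in *DxD*, 6.74, 6.92 and 6.87 in *DxM*, 6.83, 6.85 and 6.97 in *MxD*, and 6.95, 7.07 and 7.16 in *MxM*. The *DxD* males lay below all other 9 males. The highest *MxD* male (6.97) was above the lowest *MxM* male (6.95), while the *DxM* and *MxM* males did not overlap. The means were 7.06 ± 0.11 (SD, n = 3) in *MxM*, 6.88 ± 0.08 in *MxD*, 6.84 ± 0.09 in *DxM* and 6.66 ± 0.04 in *DxD*.

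*DxD* was 0.40 below *MxM* (log2 difference -0.40, standard error 0.08, limma adjusted p = 0.0022), a 1.32-fold difference. Under the unequal-variance form of the methods' t-test its adjusted p was 0.089. *MxD* was 0.22 above *DxD*, where 45.7% of all genes differed more. With a limma adjusted p of 0.048, this call was close to the threshold. It was kept in 8 of 22 alternatives and was lost without any 1 *DxD* or *MxD* male, without *MxM* replicate 2 and without *DxM* replicate 2 or 3, with adjusted p-values from 0.054 to 0.16. It was also lost without the replicate 1 males, with the trended robust prior, with autosomal centring and under both forms of the methods' t-test, at 0.0501 to 0.096, and at a threshold of 0.01.

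The differences of the hybrids from *MxM* were -0.18 for *MxD* (limma adjusted p = 0.10) and -0.21 for *DxM* (limma adjusted p = 0.083), and that of *DxM* from *DxD* was 0.19 (limma adjusted p = 0.15). A fit with the replicate number as a block let 2 of these differences pass where the numbers were taken to pair the males. They were *MxD* against *MxM*, with a limma adjusted p of 0.026, and *DxM* against *DxD*, with 0.038. The fit let 43.9% and 22.6% of all genes pass in these comparisons. It also let *DxM* against *MxM* pass, at 0.019 (27.4% of all genes), where the numbers were not taken to pair the males. Without *MxM* replicate 1, the lowest *MxM* male, the adjusted p was 0.049 for *MxD* and 0.039 for *DxM* against *MxM*. The hybrids differed from each other by 0.04 (95% confidence interval -0.13 to 0.21). Their joint mean of 6.86 equalled, to that precision, the mean of the within-species crosses.

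Set beside its class, *Ccna2* lay toward the low end when any other genotype was set against *MxM*, and in *MxD* against *DxM*. From *MxM* to *MxD* the 366 other mitotic genes had a median difference of 0.19 and *Ccna2* one of -0.18, and 30 of the 366 lay lower. From *DxM* to *MxD* the class median was 0.16 against 0.04 for *Ccna2*, with 72 genes lower. The low place was also seen between fertile genotypes. From *MxM* to *DxM* *Ccna2* lay at -0.21 against a class median of 0.03, with 48 genes lower. From *MxM* to *DxD* it lay at -0.40 against -0.09, with 46 lower. From *DxD* to *MxD* *Ccna2* was near its class, at 0.22 against 0.26. From *DxD* to *DxM* it lay above the class median, at 0.19 against 0.09, with 261 genes lower. These ranks describe these 12 males and were not tested.

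The 2 cyclin A genes moved apart between *DxD* and the other genotypes. The log2 difference of *Ccna1* minus *Ccna2*, set to 0 at the mean of *DxD*, ranged from -0.13 to 0.10 in the *DxD* males. It averaged -0.62 ± 0.24 (SD, n = 3) in *MxM*, -0.63 ± 0.16 in *DxM* and -0.64 ± 0.10 in *MxD*. The highest value outside *DxD* was -0.35, in *MxM* replicate 1. All 9 males that carried *M. musculus* autosomes therefore lay below the 3 that did not. This quantity was chosen after the values had been seen and was not tested. The array probes were designed on a genome of mostly *M. domesticus* origin, and an unequal match of probes to *M. musculus* transcripts cannot be told apart from expression in any comparison of *DxD* with the other genotypes.

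**Figure D2:**
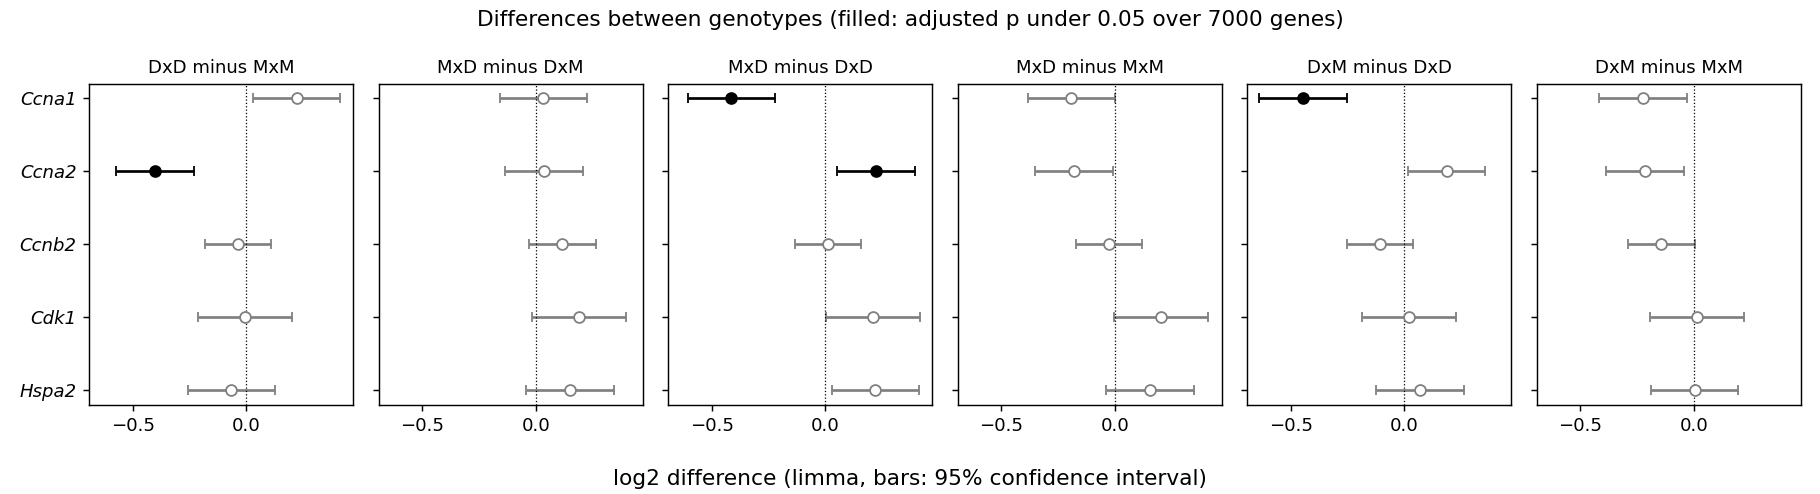
Log2 differences between genotypes (horizontal axis, limma, bars for the 95% confidence interval) for 5 genes (rows) in 6 comparisons (panels), with filled points for an adjusted p under 0.05 over 7000 genes. The 4 filled points are *Ccna2* at -0.40 in *DxD* minus *MxM*, *Ccna1* at -0.41 and *Ccna2* at 0.22 in *MxD* minus *DxD*, and *Ccna1* at -0.45 in *DxM* minus *DxD*, and no point is filled in *MxD* minus *DxM*.

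*Ccnb2* (ENSMUSG00000032218_at) encodes cyclin B2, a partner of CDK1 at the entry into division. It measured 11.03, 10.996 and 10.99 in *DxD*, 11.01, 11.03 and 11.09 in *MxM*, 10.93, 10.85 and 10.92 in *DxM* and 10.91, 11.11 and 11.03 in *MxD*. All 3 *DxM* males lay below the 6 within-species males, while the *MxD* males spanned nearly the whole range of the 12. The means were 11.04 ± 0.04 (SD, n = 3) in *MxM*, 11.02 ± 0.10 in *MxD*, 11.005 ± 0.02 in *DxD* and 10.90 ± 0.04 in *DxM*.

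No neighbours in that order were separated by the test. *DxM* differed by -0.14 from *MxM* (limma adjusted p = 0.18) and by -0.11 from *DxD* (limma adjusted p = 0.37). *MxD* differed by 0.01 from *DxD* (95% confidence interval -0.14 to 0.16) and by -0.03 from *MxM* (-0.17 to 0.12). Between *MxD* and *DxM* the difference was 0.12, with an interval of -0.03 to 0.26 and a limma adjusted p of 0.34.

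*Cdk1* (ENSMUSG00000019942_at), the catalytic subunit, was flat among the fertile genotypes. It measured 9.34, 9.32 and 9.33 in *DxD*, 9.31, 9.23 and 9.46 in *MxM* and 9.37, 9.36 and 9.32 in *DxM*. The *MxD* males measured 9.32, 9.68 and 9.61. Replicates 2 and 3 were above all 9 fertile males, and replicate 1 lay among them. The means were 9.54 ± 0.19 (SD, n = 3) in *MxD*, 9.35 ± 0.03 in *DxM*, 9.34 ± 0.12 in *MxM* and 9.33 ± 0.01 in *DxD*.

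The *MxD* mean was higher by 0.19 than *DxM* (limma adjusted p = 0.26), by 0.20 than *MxM* (limma adjusted p = 0.12) and by 0.21 than *DxD* (limma adjusted p = 0.11), and none of these passed. The intervals reached from -0.01 to 0.40, from -0.002 to 0.41 and from 0.005 to 0.42. Without *MxD* replicate 1 the differences were 0.30, 0.31 and 0.32, and the limma adjusted p-values 0.055, 0.017 and 0.014 in the same order. Without *MxD* replicate 2, the highest male, they were 0.12, 0.13 and 0.14, with limma adjusted p-values of 0.56, 0.34 and 0.33. The fertile genotypes differed from each other by at most 0.02.

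*Hspa2* (ENSMUSG00000059970_at), the spermatocyte chaperone, measured 11.88, 12.09 and 12.04 in *DxD*, 11.99, 12.004 and 12.21 in *MxM*, 11.99, 12.04 and 12.19 in *DxM* and 12.19, 12.18 and 12.30 in *MxD*. The *MxD* males lay above all *DxD* males. The highest *MxM* male and the highest *DxM* male reached into the range of *MxD*. The means were 12.22 ± 0.06 (SD, n = 3) in *MxD*, 12.07 ± 0.10 in *DxM*, 12.07 ± 0.13 in *MxM* and 12.004 ± 0.11 in *DxD*.

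*MxD* was 0.22 higher than *DxD* for *Hspa2*, with a limma adjusted p of 0.079. Pairing the males by replicate number as a block made it 0.015, in a fit that let 46.0% of all genes pass. With single males left out the difference ranged from 0.16 to 0.26 and the adjusted p from 0.046, without *MxM* replicate 3, to 0.26, without *DxD* replicate 1. It passed in 5 of 23 alternatives. The differences of *MxD* from *DxM* and from *MxM* were both 0.15, with limma adjusted p-values of 0.36 and 0.21. Their intervals were -0.04 to 0.34 and -0.04 to 0.35. *DxM* and *MxM* differed by 0.004 (95% confidence interval -0.19 to 0.20).

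The males of a genotype did not spread alike in the 5 genes. In *MxD*, replicate 1 was the lowest male for *Ccna1*, *Ccna2*, *Ccnb2* and *Cdk1*, by 0.07, 0.05, 0.11 and 0.22 below the mean of its genotype. Replicate 1 was the lowest male of every genotype for *Ccna2*, and of 3 genotypes for *Hspa2*. For *Ccna1* it was the highest male in *DxD*, *MxM* and *DxM*. In *MxM*, replicate 3 was the highest male for *Ccna2*, *Ccnb2*, *Cdk1* and *Hspa2*. Over the whole table *MxM* replicate 3 stood apart, where 131 genes had a value lower by 1 log2 unit or more than in each of the other males, against at most 4 such genes in any other male. The within-genotype variance averaged 0.088 in *MxM* and 0.015 to 0.028 in the other genotypes.

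**Figure D3:**
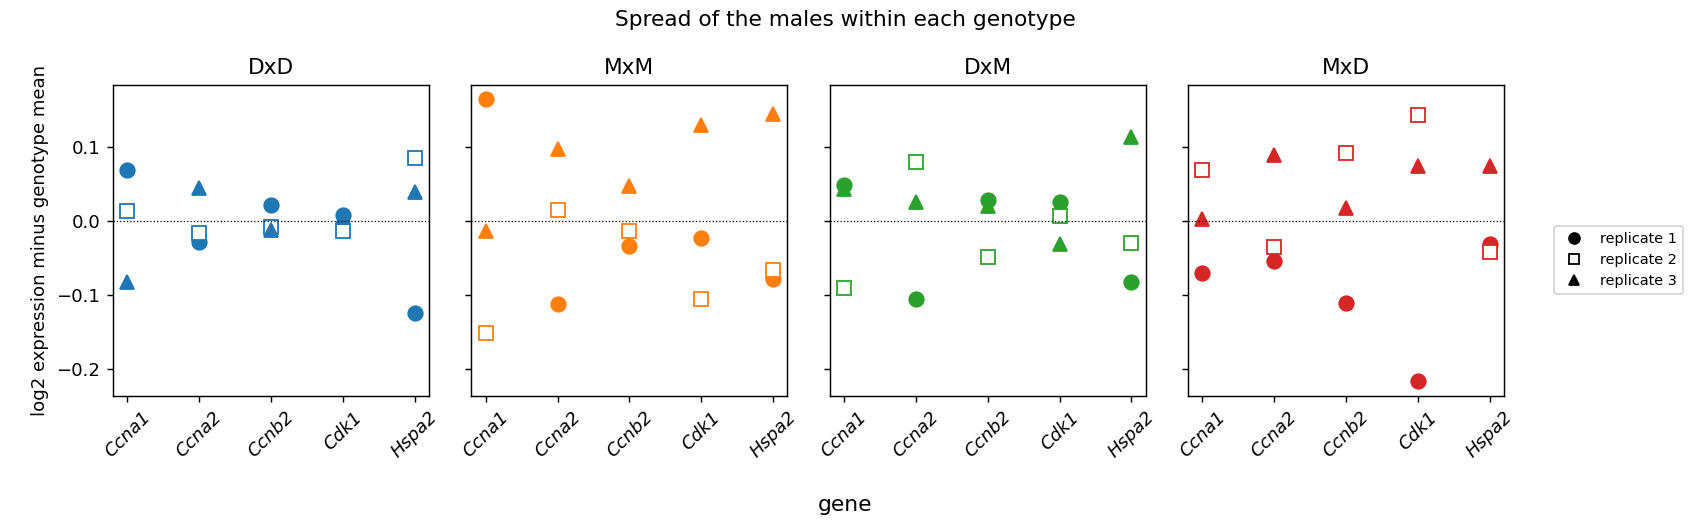
Log2 expression minus the genotype mean (vertical axis) for 5 genes (horizontal axis) in the 3 males of each genotype (panels), with symbols for the replicate number. The widest deviation is that of *Cdk1* in *MxD* replicate 1, at -0.22, and replicate 1 is the lowest male for *Ccna2* in every panel.

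The mitotic and postmeiotic classes set the *MxD* males apart from all fertile males, while the meiotic and somatic classes did not. No test was run on the classes, whose labels cover only a part of the genes, nearly all of them autosomal. They do not stand for X-linked postmeiotic genes, for which the paper reports over-expression in *MxD* males. The deviation of each male from the median of the 12 males, as the median over a class, was -0.16 ± 0.05 (SD, n = 3) in *MxD* for 269 postmeiotic genes and 0.02 to 0.06 on average in the fertile genotypes. For 366 mitotic genes it was 0.15 ± 0.07 in *MxD* against -0.09 to -0.005. For 323 meiotic genes it was -0.04 ± 0.03 in *MxD* against -0.006 to 0.03, and for 142 somatic genes 0.07 ± 0.03 against -0.05 to 0.03. Meiotic genes thus had the smallest mean deviation in *MxD*, and their *MxD* and *DxM* males overlapped. For the somatic genes the *MxD* males (0.04 to 0.09) lay within the range of the *MxM* males (-0.03 to 0.12). In the comparison with *DxM*, *Cdk1* and *Hspa2*, which have no class label in the rows used, lay at 0.19 and 0.15. The class medians there were -0.05 for meiotic, 0.16 for mitotic, 0.11 for somatic and -0.20 for postmeiotic genes. Of the Leydig cell markers, only *Cyp17a1* could be named. Its name came from a list in the paper, selected from the genes that differed between sterile and fertile males on these arrays. The genes kept there were postmeiotic and higher, or mitotic and lower, in sterile males. It measured 11.17 to 11.29 in *MxD* and 9.54 to 10.69 in the fertile males. A difference, its direction and a cell-type label were conditions of being on that list, so these values are no independent marker of Leydig cells. The part of these shifts in the values of the 5 genes was not tested.

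When each array was centred on its meiotic genes, *Cdk1* and *Hspa2* in *MxD* were 0.32 and 0.33 above *DxD*, with limma adjusted p-values of 0.013 and 0.0092, and *Cdk1* was 0.27 above *MxM* with 0.034. This centring raised *MxD* against *DxD* by 0.11 for every gene, so these are differences relative to the meiotic class, and 36.6% of all genes passed against *DxD* and 31.5% against *MxM* with it. *Ccna1* in *MxD* stayed below *DxD* with it, at -0.30 (limma adjusted p = 0.015).

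**Figure D4:**
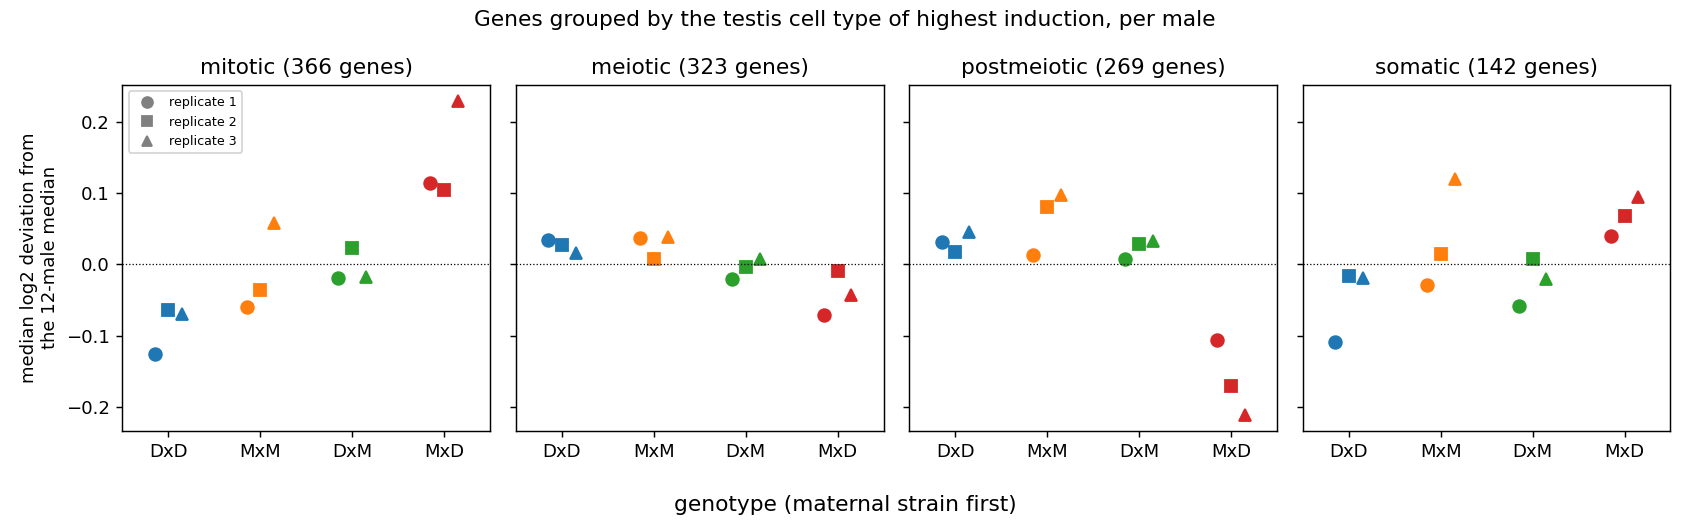
Median log2 deviation from the median of the 12 males (vertical axis) over genes grouped by the testis cell type of strongest induction (panels), for each male by genotype (horizontal axis), with symbols for the replicate number. The *MxD* males are the highest for mitotic genes and the lowest for postmeiotic genes, at means of 0.15 and -0.16, and the meiotic genes lie between -0.07 and 0.04 in all males.

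The likeness of other genes was measured as the Pearson correlation of log2 values over the 12 males, with no p because the closest were picked from the whole table. The 3 closest genes reached r = 0.97 for *Ccna2*, 0.92 to 0.93 for *Ccna1*, 0.93 for *Hspa2*, 0.87 to 0.88 for *Cdk1* and 0.83 to 0.86 for *Ccnb2*. The gene closest to *Ccna1* was ENSMUSG00000050592 on chromosome 2, with a postmeiotic label (r = 0.93, Spearman's rho 0.91). The gene closest to *Ccna2* was ENSMUSG00000040351 (r = 0.97, Spearman's rho 0.99). For *Cdk1* the rank correlations were lower, at 0.56 to 0.79. The 12 points share the array normalization and fall into 4 genotypes, so these values describe a common order of genotypes as much as of males.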

How the data were processed

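RNA from whole testis of 12 males was hybridised to Affymetrix mouse expression arrays, 1 per male. The authors grouped probes by Ensembl gene (BRAINARRAY version 11), summarised them with PLIER, filtered to genes called as detected on all arrays, applied quantile normalization, and deposited log2 values for 7000 genes. All columns were used as deposited. The median of each array was 8.14. Precision is limited by the number of arrays, since no read depth exists. Genotypes came from the labels. The sources do not say whether males of a genotype were littermates.

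Two-sided tests of 6 comparisons used limma 3.58.1 under R 4.3.3, checked on simulated data. Alternatives were the methods' t-test (unequal and equal variances), fits of 2 genotypes, the replicate number as a block, a trended robust prior, no dimmest 25% of genes, repeated normalization, 2 other centrings, other thresholds, each male left out and replicate 1 left out. Males with the same number were compared by how they deviated from the means of their genotypes. These correlations were above 0.1 for every number between *MxD* and each fertile genotype and between *DxM* and *DxD*. The numbers were taken to pair the males there, but the labels do not say what they stand for, and pairing was not tested. The lowest correlations were 0.074 between *DxD* and *MxM*, for replicate 2, and -0.051 between *DxM* and *MxM*, for replicate 3. For replicate 1 they were 0.57 to 0.76 in every pair of genotypes, these pairs included. The replicate 1 males thus deviated alike in all genotypes, and the main fit has no term for that. Cell-type labels came from the first 1997 rows of the paper's gene table. Chromosomes came from these rows and, where missing there, from the paper's selected list of sterility-correlated genes. That list holds genes that were postmeiotic and higher, or mitotic and lower, in sterile males. Autosomal centring therefore used the median of only the 2005 genes with a stated autosome, which did not include *Ccnb2*, *Cdk1* or *Hspa2*.

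Genes and lists were chosen with earlier results of these data known. Named were the 6 members and, for likeness, the 3 genes closest to each. Lists of 169 cell-cycle, chaperone and cell-type marker symbols had also been drawn up, but only 1 of them (*Cyp17a1*) could be matched to an identifier. That match came through the paper's selected list of sterility-correlated genes, chosen on these arrays by direction and cell-type label. Testis markers were therefore not checked by name, and those lists were not analysed here. Gene sequences were not used here. Figures were drawn with matplotlib 3.10.9.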

Additional observations from a re-analysis of the deposited data

Results flagged for a closer look

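For *Ccna1* the difference between males of a *M. musculus* and of a *M. domesticus* mother itself differed with the subspecies of the father. The fathers' strains differ too within each of these pairs (LEWES/EiJ against WSB/EiJ, and CZECHII/EiJ against PWK/PhJ), so these are not effects of the mother alone. With a *M. domesticus* father, males of a *M. musculus* mother (*MxD*) were 0.41 below those of a *M. domesticus* mother (*DxD*), a log2 difference of -0.41, whereas with a *M. musculus* father the corresponding difference (*MxM* minus *DxM*) was 0.22. The difference between these effects was -0.64 (standard error 0.12, limma adjusted p = 0.0046), where 21.2% of all 7000 genes passed the same test, so 1 of 5 is near that share. By construction it is the contrast of the hybrid with the within-species crosses, summed over fathers where that contrast averages them. No other of the 5 genes passed it, with adjusted p-values from 0.23 for *Hspa2* to 0.97 for *Ccna2*.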

How the results depend on the processing

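The counts of passing genes are given with the share of all genes that passed under the same alternative, and they mostly rose and fell with it. Between *MxD* and *DxM* 0 of the 5 genes passed in every alternative, while 0 to 21.8% of all genes did, 0 and 0.129% of them with the adjusted methods' t-tests, so this count says little about the 5 genes. All alternatives kept the direction of the 4 passing differences. Between *DxD* and *MxM* the count of 1 became 0 with the unequal-variance form of the methods' t-test after adjustment (6.69% of all genes), 0 without the dimmest 25% of genes, which leaves out *Ccna2* (30.5%), 2 at an unadjusted p under 0.05 (41.8%) and 2 with replicate 1 against the others as a block, an alternative chosen after seeing the data (43.2%). Between *MxD* and *DxD* the count of 2 became 1 with the adjusted t-tests with unequal and equal variances (9.34% and 22.7%), without the dimmest genes (31.3%), with arrays centred on the autosomal median (32.4%) or at an adjusted p under 0.01 (17.5%). It became 3 with replicate 1 as a block (44.5%), and 4 with meiotic centring (36.6%) or at an unadjusted p (42%). Without the replicate 1 males it stayed at 2 (25.6%), but *Cdk1* passed (limma adjusted p = 0.044) and *Ccna2* did not (limma adjusted p = 0.072). Between *MxD* and *MxM* the count of 0 became 1 with the replicate block (43.9%), with replicate 1 as a block (43.0%), with meiotic centring (31.5%) or at an unadjusted p (41.5%). Between *DxM* and *DxD* it went from 1 to 0 with the adjusted t-test with unequal variances (2.43%). It went to 2 with that test unadjusted (24.8%), with the replicate block (22.6%), with replicate 1 as a block (22%), with meiotic centring (15%) or at an unadjusted p (25.5%). Between *DxM* and *MxM* it went from 0 to 1 with the replicate block (27.4%), with replicate 1 as a block (27.2%) or the unadjusted t-test with unequal variances (18.3%), and to 2 at an unadjusted p (29.5%). For both hybrids against both within-species crosses it went from 1 to 3 with meiotic centring (24.7%). With each male left out in turn the counts ranged from 1 to 2, 0 to 0, 1 to 3, 0 to 1, 1 to 1, 0 to 1 and 1 to 1 in the order *DxD*-*MxM*, *MxD*-*DxM*, *MxD*-*DxD*, *MxD*-*MxM*, *DxM*-*DxD*, *DxM*-*MxM* and hybrids. With the replicate block 3 genes passed between *MxD* and *DxD*, *Hspa2* being added, where 46.0% of all genes passed, and the block changed no call between *DxD* and *MxM* or between *MxD* and *DxM*. Where the numbers were not taken to pair the males, between *DxM* and *MxM*, the block let *Ccna2* pass (limma adjusted p = 0.019).

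Only differences that did not pass changed direction. With autosomal centring *Cdk1* became 0.018 in *DxD*-*MxM* and -0.0028 in *DxM*-*DxD*, and *Ccnb2* became -0.029 in *MxD*-*DxD*. *Ccnb2* in *MxD*-*MxM* became 0.036 with meiotic centring and 0.012 without replicate 1 males, and *Cdk1* in *DxM*-*MxM* became -0.0112 without them. With each male left out, the ranges that crossed 0 were -0.059 to 0.058 (*Cdk1*) and -0.11 to 0.0063 (*Hspa2*) in *DxD*-*MxM*, -0.013 to 0.068 (*Ccna1*) and -0.016 to 0.076 (*Ccna2*) in *MxD*-*DxM*, -0.035 to 0.066 (*Ccnb2*) in *MxD*-*DxD*, -0.072 to 0.029 (*Ccnb2*) in *MxD*-*MxM*, and -0.039 to 0.077 (*Cdk1*) and -0.052 to 0.076 (*Hspa2*) in *DxM*-*MxM*. The cause of these changes was not tested. With 3 males per genotype, differences of about 0.2 mostly had 95% confidence intervals that left out 0 but did not pass after adjustment over 7000 genes, except *Ccna2* between *MxD* and *DxD*.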
